A study of Mus musculus with 10 samples.

Results

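The conjugation enzymes are the transferases that couple a small polar group to drugs, hormones, bile pigments and dietary compounds so that these can be excreted. They were taken from the deposited gene table as the genes with a symbol beginning Ugt1, Ugt2, Ugt3, Gsta, Gstm, Gstp, Gstt, Gsto, Gstk, Gstz, Mgst or Sult, without pseudogenes, that had at least 10 counts in at least 3 of 10 libraries. This gave 41 of the 52178 genes in the table: 10 glucuronosyltransferases (Ugt), 24 glutathione transferases (Gst and the membrane-bound Mgst) and 7 sulfotransferases (Sult). Another 26 family genes that are not pseudogenes stayed under this count rule, with 14 of them at 0 in all libraries and no count above 19. Just inside the rule were Gsta2, Gstp3 and Ugt2b36, each with 10 counts in 5 libraries, and just outside were Ugt1a6b with 2 such libraries and Sult5a1 with 1.

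RNA was sequenced from pancreatic islets, the clusters of hormone-secreting cells of the pancreas, of male C57Bl/6 mice that were retired breeders. The sedentary group (sedentary 1 to 5) had not been trained, and the exercise group (exercise 6 to 10) had, after 3 days to acclimatize, run on a treadmill on 5 days of each of 2 weeks, for 1 h daily, with the belt at 17 cm/s and an incline of 5 degrees. The labels give no genotype or transgene for either group, and the islets of both were isolated with collagenase and plated in medium that held 11 mM glucose. Which animals gave which library is not in the labels, and the p-values here rest on the spread among libraries, which may be technical. Library totals lay between 15081922 and 23222704 counts, and levels are given as CPM, counts scaled to a common library size after correction by the trimmed mean of M-values (TMM). Means are given ± SD with n = 5 libraries per group.

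Glucuronosyltransferases transfer glucuronic acid, glutathione transferases the tripeptide glutathione and sulfotransferases a sulfate group. The small intestine and the liver are the classic sites of these enzymes, and enterocytes conjugate much of what is absorbed before it reaches the portal blood. Islet cells are not known as a major site of drug conjugation.

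The islet label was checked against marker genes first, because these values stand beside every result below. Summed over 24 genes of endocrine cells, among them the insulin genes Ins1 and Ins2, the level was 9529 and 43075 CPM in sedentary 1 and 2, against 152290.0 to 224610.0 CPM in sedentary 3 to 5 and 152903 to 210094 CPM in exercise libraries. Summed over 40 genes of the intestinal epithelium, it was 25345 and 35659 CPM in sedentary 1 and 2, 5236 to 7245 CPM in sedentary 3 to 5 and 604 to 1511 CPM in exercise libraries. Sedentary 1 and 2 thus stood apart from the other 8 libraries on both lists, and the log2 fold changes of the enzymes, and the counts and medians of the gene lists, are given with all 10 libraries and again without these 2.

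A single locus gives the Ugt1 enzymes. Each has its own first exon, and the 4 exons after it are common to all, so part of every Ugt1 transcript is the same sequence. The junction between the own and the common part is shown because reads from the common part cannot be given to one gene. In the GENCODE M21 transcripts (GRCm38), the 30 coding bases before the junction are in lower case and the first 30 bases of the common exon (chr1:88215044-88215175) are in capitals:
Ugt1a1: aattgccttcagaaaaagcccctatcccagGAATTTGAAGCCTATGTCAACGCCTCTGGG
Ugt1a6a: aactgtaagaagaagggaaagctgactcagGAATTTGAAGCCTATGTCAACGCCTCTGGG
Ugt1a7c: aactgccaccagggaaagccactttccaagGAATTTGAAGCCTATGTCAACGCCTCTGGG
Ugt1a9: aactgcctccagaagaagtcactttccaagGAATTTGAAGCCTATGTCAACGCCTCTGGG
The capitals are identical in all 4, and the common exons held 735 coding bases, 45.8% to 46.4% of each coding sequence.

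The conjugation enzymes were mostly lower in exercise than in sedentary islets. In the edgeR quasi-likelihood test with Benjamini-Hochberg adjustment over all genes, 31 of the 41 fell, beside 11.4% of all 15298 genes tested (1745 genes), and none rose, beside 2.44% of all genes (374 genes). At an unadjusted p under 0.05, 1 of the 41 was higher. The share of all genes at an unadjusted p was not counted, here or below. As other tools, DESeq2 called 1 higher (Sult1a1), beside 1097 of all 15298 genes, and limma-voom 0, beside 177. By fitted fold change 25 of the 41 were over 4-fold lower and 15 over 16-fold lower. The median log2 fold change was -3.03 over the 41 enzymes and -0.00072 over all genes tested. All 10 Ugt genes fell (median -4.76), as did 18 of 24 Gst and Mgst genes (median -2.21) and 3 of 7 Sult genes (median -1.72). Gsta2, Gstp3 and Ugt2b36 reached 10 counts only in sedentary libraries, so that entering the set and being lower in exercise were not independent for them, and 28 of the other 38 fell.

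Without sedentary 1 and 2, 27 of the 41 fell, all of them among the 31, beside 8.68% of 15692 genes tested. None rose, beside 4.10% of all genes, with 2 higher at an unadjusted p under 0.05. The median log2 fold change was then -1.75 over the 41 enzymes and 0.026 over all genes tested. By family, all 10 Ugt genes (median -3.17), 14 of 24 Gst and Mgst genes (median -1.08) and 3 of 7 Sult genes (median -0.31) fell. For 24 of the 31 enzymes the log2 fold change was more than 1.5 times larger with sedentary 1 and 2 than without. The calls lost were those of Gstm7, Gsta3, Gstt2 and Gstm1. Gsta2, Gstp3 and Ugt2b36, which reached 10 counts only in sedentary libraries, are among the 27 that fell. The limma-voom test on all 10 libraries called 13 of the 41 lower, beside 339 of all 15298 genes. These were Ugt1a1, Ugt1a7c, Ugt2b5, Ugt2b34, Ugt2b38, Gsta1, Gsta2, Gstm3, Gsto1, Mgst1, Mgst3, Sult1b1 and Sult6b2. With library totals in place of TMM the median of all genes moved to -0.34, 4408 genes were lower and 159 higher, and 35 enzymes were called lower.

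In CPM, all 5 exercise libraries lay below all 5 sedentary libraries for 28 of the 41 enzymes, beside 11.4% of all genes tested (1740 genes). They lay above all 5 for 2 of the 41, Gsto2 and Sult1a1, beside 6.24% of all genes tested. Gsta2, Gstp3 and Ugt2b36, which entered the set through sedentary counts alone, are among the 28 that lay below. Sedentary 1 and 2 were the 2 highest libraries for 35 of the 41 enzymes, and for 29.4% of all genes tested. Among the exercise libraries, exercise 6 was the highest for 28 of the 41, beside 23.6% of all genes. The intestinal sum was 1511 CPM in exercise 6, the highest of its group, with 1471 CPM in exercise 10 and 1295 CPM in exercise 8 close to it. Whether the enzymes followed this sum within the exercise group was not tested. In bulk samples, fewer cells of a type and less RNA per cell cannot be told apart, and this applies to every fall described here.

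**Figure D1:**
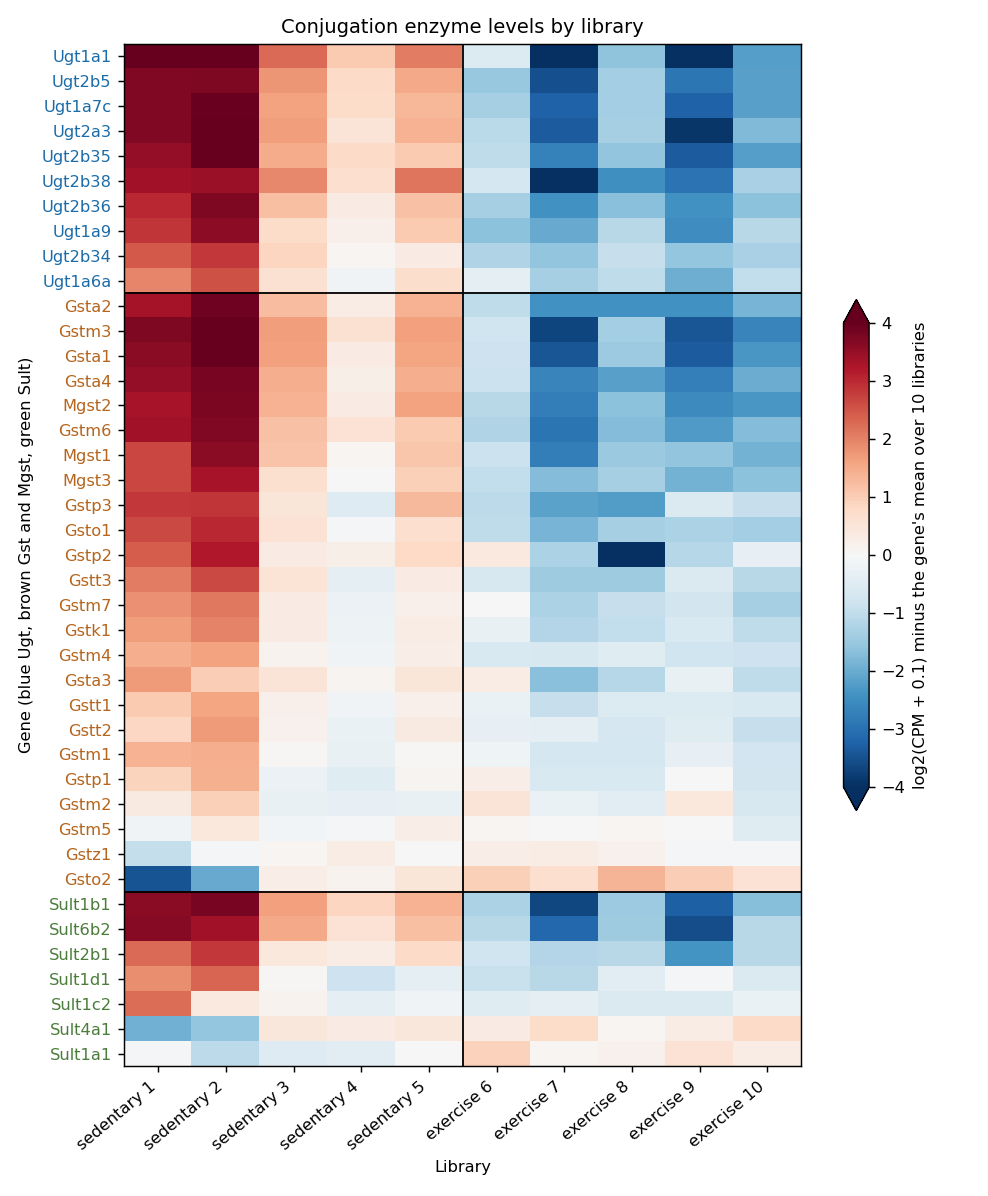
Levels of the 41 conjugation enzymes (rows, by family and fold change) in the 10 libraries (columns, sedentary 1 to 5 and exercise 6 to 10). Colour gives log2(CPM + 0.1) minus the gene's mean over the 10 libraries, with the scale ending at 4 in both directions. Sedentary 1 and 2 are the darkest red columns for 35 enzymes, and the lowest rows of the Gst and Sult blocks do not follow the pattern.

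**Figure D2:**
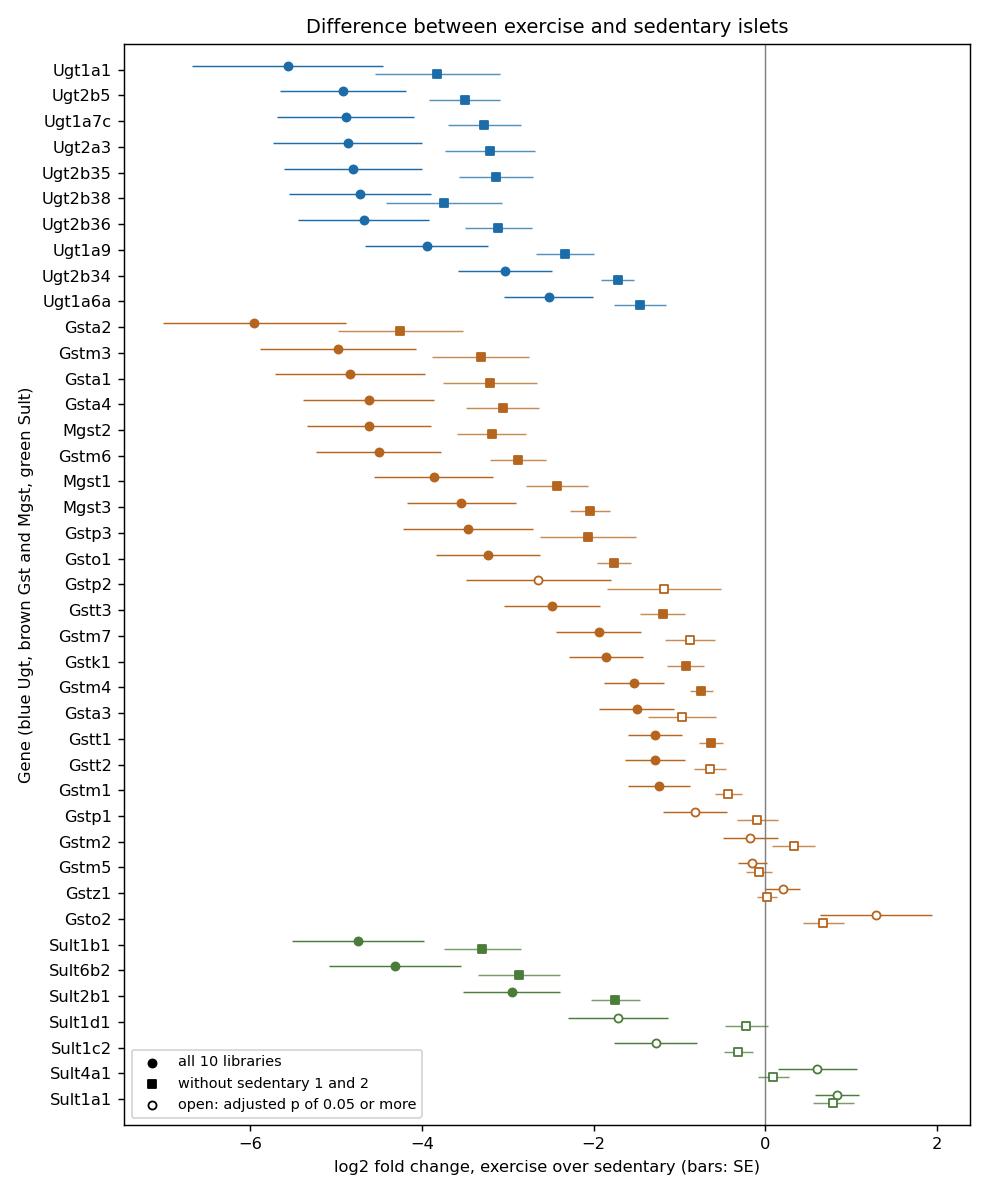
Log2 fold change of exercise over sedentary islets for each enzyme with its standard error, from all 10 libraries (circles) and without sedentary 1 and 2 (squares). Filled symbols passed the edgeR test at an adjusted p under 0.05: 31 circles and 27 squares, all left of 0.

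Among the glucuronosyltransferases, Ugt1a1, the enzyme that conjugates bilirubin, had 225, 385, 60.2, 25.7 and 51.6 CPM in sedentary 1 to 5 and 8.44, 0.195, 4.03, 0.386 and 2.64 CPM in exercise 6 to 10. It was lowest in exercise 7 and 9, at 3 and 6 counts, and the groups did not overlap. The log2 fold change was -5.56 ± 1.11 (SE, edgeR adjusted p = 0.0116) with all libraries and -3.82 without sedentary 1 and 2 (adjusted p = 0.00782). Ugt1a7c, an intestinal and lung form for phenolic compounds, had 284, 338, 66.1, 35.8 and 53.8 CPM in sedentary 1 to 5 and 8.60, 2.21, 8.40, 2.19 and 4.74 CPM in exercise 6 to 10. The first 2 sedentary libraries were several times above sedentary 3 to 5, which were again well above every exercise library. It fell by 4.89 log2 units (edgeR adjusted p = 0.00900), and by 3.27 without sedentary 1 and 2 (adjusted p = 0.00151). Ugt1a9, whose human counterpart conjugates many phenolic drugs, had 27.7, 45.4, 6.27, 4.36 and 7.78 CPM in sedentary 1 to 5 and 1.12, 0.846, 1.67, 0.580 and 1.66 CPM in exercise 6 to 10, with a log2 fold change of -3.94 ± 0.71 (edgeR adjusted p = 0.00907), or -2.34 without sedentary 1 and 2 (adjusted p = 0.00219). Ugt1a6a, an enzyme for small planar phenols, fell least of the Ugt genes, from 36.6 ± 27.5 to 6.36 ± 2.44 CPM (log2 fold change -2.52 ± 0.52, edgeR adjusted p = 0.0129). With sedentary 1 and 2 left out, it fell by 1.46 log2 units (edgeR adjusted p = 0.0115).

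Reads of the Ugt1 genes were hard to separate, as the junction sequences above show. Of the 31-base words in the GENCODE M21 transcripts of a gene, the share also found in transcripts of another gene was 81.3% for Ugt1a1, 67.8% for Ugt1a9, 55.7% for Ugt1a7c and 53% for Ugt1a6a. The division of counts among these 4 genes is therefore uncertain, and all 4 were lower in exercise.

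The Ugt2 genes stand side by side on chromosome 5 and conjugate steroids, bile acids and fatty acids. Ugt2b5 had 104, 105, 26.6, 13.4 and 22.3 CPM in sedentary 1 to 5 and 2.68, 0.586, 2.99, 0.966 and 1.66 CPM in exercise 6 to 10. The 2 highest libraries, sedentary 1 and 2, were almost equal, and no exercise library came near the lowest sedentary one. The log2 fold change was -4.92 ± 0.74 (edgeR adjusted p = 0.00900) and -3.50 without sedentary 1 and 2 (adjusted p = 0.00124). Ugt2b34 had 575, 754, 190.5, 112 and 132 CPM in sedentary 1 to 5 and 45.6, 35.5, 55.3, 36.3 and 43.4 CPM in exercise 6 to 10. The exercise libraries lay in a narrow range below the lowest sedentary library, and it fell by 3.03 log2 units (edgeR adjusted p = 0.00907), and by 1.72 without sedentary 1 and 2 (adjusted p = 0.00116). Ugt2a3, an enzyme of the intestine and liver that takes bile acids, had 81.3, 106, 19.9, 8.81 and 16.4 CPM in sedentary 1 to 5 and 2.85, 0.521, 2.42, 0.322 and 1.76 CPM in exercise 6 to 10. Its groups were far apart, with a log2 fold change of -4.87 ± 0.87 (edgeR adjusted p = 0.00900) and -3.20 without sedentary 1 and 2 (adjusted p = 0.00386).

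Ugt2b35 had 56.7, 78.0, 13.8, 8.21 and 10.2 CPM in sedentary 1 to 5 and 2.35, 0.651, 1.55, 0.386 and 0.976 CPM in exercise 6 to 10 (log2 fold change -4.80 ± 0.81, edgeR adjusted p = 0.00900). Ugt2b38 had 18.1, 19.7, 6.66, 2.76 and 7.83 CPM in sedentary 1 to 5 and 1.01, 0, 0.230, 0.129 and 0.635 CPM in exercise 6 to 10, and fell by 4.72 log2 units (edgeR adjusted p = 0.00900). The log2 fold changes without sedentary 1 and 2 were -3.14 for Ugt2b35 and -3.75 for Ugt2b38 (edgeR adjusted p = 0.00175 and 0.00598). Exercise 7 gave no count of Ugt2b38, which at its depth allows up to 3 counts or 0.195 CPM. Ugt2b5 and Ugt2b38 shared much of their sequence, 56.4% and 52.9% of the 31-base words, most of it with each other. Ugt2b36 is one of the genes that reached 10 counts only in sedentary libraries, with 165, 298, 49, 33 and 54 counts there and 7, 2, 5, 2 and 6 in exercise 6 to 10.

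**Figure D3:**
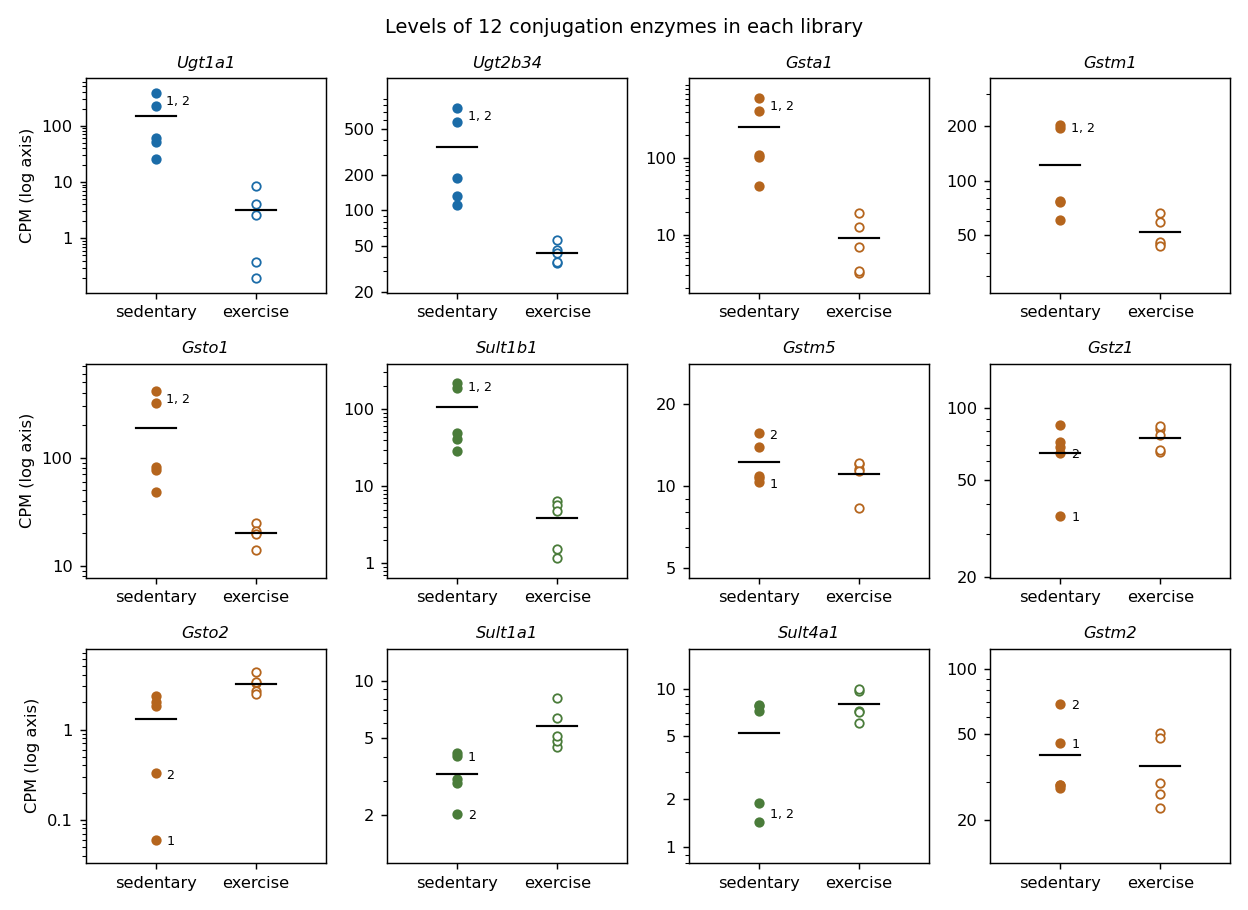
Levels of 12 conjugation enzymes in each library, in CPM on a log axis, with filled points for sedentary and open points for exercise libraries, lines at the group means and sedentary 1 and 2 marked by number. Ugt1a1, Ugt2b34, Gsta1, Gsto1 and Sult1b1 show separate groups with sedentary 1 and 2 on top, and in Gstz1, Gsto2 and Sult4a1 sedentary 1 is the lowest library.

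The alpha class of glutathione transferases conjugates lipid peroxidation products and steroids. Gsta1 had 419, 615, 109, 43.6 and 103 CPM in sedentary 1 to 5 and 19.2, 3.12, 12.5, 3.35 and 6.83 CPM in exercise 6 to 10. The lowest sedentary library, sedentary 4, was still above the highest exercise library, exercise 6. The log2 fold change was -4.83 ± 0.87 (edgeR adjusted p = 0.00900), or -3.21 without sedentary 1 and 2 (adjusted p = 0.00454). Gsta4, which clears the aldehyde 4-hydroxynonenal, had 134, 161, 31.8, 13.6 and 31.8 CPM in sedentary 1 to 5 and 6.31, 1.76, 2.47, 1.67 and 2.83 CPM in exercise 6 to 10. It fell by 4.62 log2 units (edgeR adjusted p = 0.00900), and by 3.06 without sedentary 1 and 2 (adjusted p = 0.00182), and shared none of its 31-base words with another gene. Gsta2 gave 89, 144, 21, 13 and 27 counts in sedentary 1 to 5 and 3, 0, 0, 0 and 1 in exercise 6 to 10, where a count of 0 allows up to 3. Gsta3 fell with all libraries, by 1.50 log2 units (edgeR adjusted p = 0.0462), and did not pass without sedentary 1 and 2 (-0.97, adjusted p = 0.144).

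Gsta1 has a near copy, Gm3776, that is not in the set because of its symbol, and was looked at after the values were seen. Of the 31-base words of Gsta1, 92.9% were in another gene and 80.3% in Gm3776. Gm3776 had 161 ± 147 CPM in sedentary and 4.66 ± 3.75 CPM in exercise libraries (log2 fold change -5.10, edgeR adjusted p = 0.00900, and -3.59, adjusted p = 0.00391, without sedentary 1 and 2). How counts were divided between the copies is uncertain, and both were lower in exercise.

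The mu class, cytosolic enzymes for epoxides and quinones, is a row of 7 neighbouring genes on chromosome 3, and these did not move as one. Gstm3 had 314, 458, 75.9, 35.8 and 73.8 CPM in sedentary 1 to 5 and 13.5, 1.76, 9.26, 2.13 and 3.71 CPM in exercise 6 to 10, a log2 fold change of -4.98 ± 0.91 (edgeR adjusted p = 0.00910). Gstm6, next to it, had 43.3, 54.2, 9.43, 6.18 and 8.57 CPM in sedentary 1 to 5 and 1.73, 0.456, 1.15, 0.773 and 1.17 CPM in exercise 6 to 10, and fell by 4.50 (edgeR adjusted p = 0.00900). For this pair the log2 fold changes were -3.32 and -2.88 without sedentary 1 and 2 (edgeR adjusted p = 0.00475 and 0.00118). Gstm3 and Gstm6 were thus far apart between the groups, whereas Gstm5 and Gstm2, of the same row, overlapped. Gstm5 had 10.3, 15.6, 10.7, 10.8 and 14.0 CPM in sedentary 1 to 5 and 12.1, 11.5, 12.1, 11.3 and 8.30 CPM in exercise 6 to 10, with a log2 fold change of -0.15 ± 0.17 (edgeR adjusted p = 0.529), and -0.07 without sedentary 1 and 2 (adjusted p = 0.794). Gstm2 had 45.2, 68.7, 28.8, 27.9 and 28.9 CPM in sedentary 1 to 5 and 50.5, 29.6, 26.4, 47.7 and 22.7 CPM in exercise 6 to 10, and its log2 fold change changed sign, from -0.18 (edgeR adjusted p = 0.699) to 0.33 without sedentary 1 and 2 (adjusted p = 0.424).

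Gstm1 had 195, 203, 77.4, 60.5 and 76.0 CPM in sedentary 1 to 5 and 66.4, 45.0, 45.7, 59.4 and 43.5 CPM in exercise 6 to 10. Its 2 highest libraries were sedentary 1 and 2, and sedentary 3 to 5 were close to exercise 6 and 9. It passed with all libraries (log2 fold change -1.23 ± 0.36, edgeR adjusted p = 0.0460) and not without sedentary 1 and 2 (-0.43, adjusted p = 0.107). Gstm4 fell in both sets of libraries, by 1.53 (edgeR adjusted p = 0.0193) and 0.75 (adjusted p = 0.00653) on the log2 scale. Gstm7 passed only with all libraries (-1.94, edgeR adjusted p = 0.0300, and -0.88, adjusted p = 0.0817). Gstm3 shared 37.7% and Gstm1 28.8% of its 31-base words with other genes.

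The pi class, which acts on electrophiles in many epithelia, has 3 genes in a row on chromosome 19. Gstp1 had 184, 268, 84.3, 71.1 and 108 CPM in sedentary 1 to 5 and 118, 64.2, 65.2, 97.1 and 59.4 CPM in exercise 6 to 10. The groups overlapped, and it did not pass the test (log2 fold change -0.82 ± 0.37, edgeR adjusted p = 0.153), with -0.09 without sedentary 1 and 2. Gstp2 ranged from 9.29 to 73.3 CPM in sedentary and 0.230 to 10.5 CPM in exercise libraries, and did not pass (-2.64, edgeR adjusted p = 0.0627, and -1.18, adjusted p = 0.273, without sedentary 1 and 2). Gstp1 and Gstp2 shared 38.5% and 60.3% of their 31-base words with other genes, mostly with each other, and their split is uncertain. Gstp3 gave 120, 132, 24, 14 and 49 counts in sedentary 1 to 5 and 7, 2, 2, 9 and 9 in exercise 6 to 10.

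The omega, theta, kappa and zeta classes followed no single pattern. Gsto1, which reduces dehydroascorbate and methylated arsenic, had 319, 414, 76.4, 48.5 and 82.1 CPM in sedentary 1 to 5 and 25.0, 13.9, 20.1, 21.2 and 19.8 CPM in exercise 6 to 10. It fell by 3.23 log2 units (edgeR adjusted p = 0.00939), and by 1.76 without sedentary 1 and 2 (adjusted p = 0.00116). Its neighbour Gsto2, the paralog of the same class, had 0.0598, 0.328, 2.00, 1.81 and 2.35 CPM in sedentary 1 to 5 and 3.24, 2.67, 4.37, 3.35 and 2.49 CPM in exercise 6 to 10. All exercise libraries were above all sedentary ones, with sedentary 1 and 2 the lowest, but the difference did not pass (log2 fold change 1.29 ± 0.65, edgeR adjusted p = 0.190, and 0.67, adjusted p = 0.0980, without those 2). Neither gene of this pair shared a 31-base word with another gene.

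The theta genes Gstt1, Gstt2 and Gstt3, for small halogenated compounds, fell by 1.29, 1.29 and 2.49 log2 units (edgeR adjusted p = 0.0250, 0.0351 and 0.0187). Without sedentary 1 and 2 the log2 fold changes were -0.64, -0.64 and -1.20, and Gstt2 did not pass (edgeR adjusted p = 0.0168, 0.0518 and 0.0167). Gstk1, the kappa enzyme of mitochondria and peroxisomes, fell by 1.86 (edgeR adjusted p = 0.0197), and by 0.93 without sedentary 1 and 2 (adjusted p = 0.0196). Gstz1, which breaks down maleylacetoacetate in tyrosine catabolism, had 35.6, 65.1, 71.9, 84.4 and 68.7 CPM in sedentary 1 to 5 and 81.7, 84.2, 76.8, 65.3 and 66.5 CPM in exercise 6 to 10. It was lowest in sedentary 1, the other sedentary libraries lay within or near the exercise range, and it did not pass (log2 fold change 0.20 ± 0.21, edgeR adjusted p = 0.483, and 0.02, adjusted p = 0.919, without sedentary 1 and 2).

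The 3 Mgst genes encode membrane proteins of the endoplasmic reticulum, of which Mgst2 can also make leukotriene C4. All 3 fell. Mgst2 had 67.9, 94.8, 18.1, 8.60 and 21.2 CPM in sedentary 1 to 5 and 3.13, 0.911, 2.13, 1.09 and 1.27 CPM in exercise 6 to 10, a log2 fold change of -4.61 ± 0.72 (edgeR adjusted p = 0.00900). Mgst1 had 111, 214, 39.1, 18.4 and 37.7 CPM in sedentary 1 to 5 and 9.67, 2.47, 6.21, 5.86 and 4.64 CPM in exercise 6 to 10, and fell by 3.86 (edgeR adjusted p = 0.00900). Mgst3 had 195, 297, 47.1, 30.7 and 58.1 CPM in sedentary 1 to 5 and 15.3, 8.98, 11.9, 8.05 and 9.67 CPM in exercise 6 to 10, and fell by 3.54 (edgeR adjusted p = 0.00900). Groups were separate for each of the 3, and without sedentary 1 and 2 the log2 fold changes were -3.19, -2.43 and -2.04 for Mgst2, Mgst1 and Mgst3.

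Among the sulfotransferases, Sult1b1, which sulfates thyroid hormone and small phenols, had 191, 217, 49.4, 28.5 and 40.9 CPM in sedentary 1 to 5 and 6.48, 1.17, 5.64, 1.55 and 4.74 CPM in exercise 6 to 10. Groups were far apart, with a log2 fold change of -4.74 ± 0.77 (edgeR adjusted p = 0.00900) and -3.29 without sedentary 1 and 2 (adjusted p = 0.00175). Sult6b2 had 182, 149.7, 41.6, 21.8 and 33.6 CPM in sedentary 1 to 5 and 6.65, 1.56, 5.35, 1.16 and 6.69 CPM in exercise 6 to 10. Its highest value was in sedentary 1, unlike that of Sult1b1 and Sult2b1, and it fell by 4.31 (edgeR adjusted p = 0.00900). Sult2b1, which sulfates cholesterol and pregnenolone, had 38.4, 56.6, 10.7, 9.85 and 13.6 CPM in sedentary 1 to 5 and 4.47, 3.45, 3.62, 1.42 and 3.61 CPM in exercise 6 to 10, and fell by 2.96 (edgeR adjusted p = 0.00976). Sult6b2 and Sult2b1 had log2 fold changes of -2.87 and -1.75 without sedentary 1 and 2 (edgeR adjusted p = 0.00438 and 0.00368).

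Sult1d1, which sulfates catecholamines in mice, is the direct neighbour of Sult1b1 on chromosome 5. It had 164, 223, 46.5, 25.1 and 35.0 CPM in sedentary 1 to 5 and 23.8, 20.8, 32.9, 42.2 and 30.1 CPM in exercise 6 to 10. Sedentary 1 and 2 stood high, sedentary 3 to 5 overlapped the exercise range, and it did not pass (log2 fold change -1.72 ± 0.58, edgeR adjusted p = 0.0742, and -0.22, adjusted p = 0.594, without those 2). Sult1c2 had 28.1, 7.75, 6.54, 4.54 and 5.29 CPM in sedentary 1 to 5 and 4.19, 4.56, 3.91, 3.93 and 4.93 CPM in exercise 6 to 10, with its value in sedentary 1 far above all others (log2 fold change -1.27 ± 0.48, edgeR adjusted p = 0.0994, and -0.31, adjusted p = 0.270, without sedentary 1 and 2). The DESeq2 test, which called 2642 of all 15298 genes lower, called Gstp2, Sult1d1 and Sult1c2 lower as well.

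Sult1a1, the main phenol sulfotransferase, had 4.06, 2.02, 2.94, 3.07 and 4.21 CPM in sedentary 1 to 5 and 8.16, 4.49, 4.83, 6.38 and 5.18 CPM in exercise 6 to 10. All exercise libraries were higher, with a log2 fold change of 0.83 ± 0.26 that narrowly missed the threshold (edgeR adjusted p = 0.0554). Leaving out sedentary 1 and 2 hardly moved it (0.79, edgeR adjusted p = 0.0556). Sult4a1, a brain form without a settled substrate, had 1.43, 1.91, 7.82, 7.21 and 7.88 CPM in sedentary 1 to 5 and 7.21, 9.70, 6.10, 7.08 and 9.91 CPM in exercise 6 to 10. Low values were those of sedentary 1 and 2, as they were for the endocrine markers, and the other 8 libraries shared one range (log2 fold change 0.60 ± 0.46, edgeR adjusted p = 0.357, and 0.09, adjusted p = 0.770, without sedentary 1 and 2).

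The calls of 8 enzymes did not hold in every fit with 1 library left out. Lower calls over all genes also dropped, from 1745 to 1015, 828, 800, 871 and 955 without exercise 6, 7, 8, 9 and 10 in turn. The falls of Gstt3, Gstm7, Gstk1, Gstm4, Gsta3, Gstt1, Gstt2 and Gstm1 each missed the threshold when at least 1 library was left out, with highest adjusted p-values of 0.0556, 0.0792, 0.0577, 0.0563, 0.113, 0.0691, 0.0892 and 0.110 (edgeR). Leaving out exercise 7 lost all 8. Sedentary 1 lost Gstm7, Gsta3, Gstt1, Gstt2 and Gstm1, and sedentary 2 lost Gstm7, Gsta3 and Gstm1. Exercise 8 lost all 8 but Gstm4, exercise 9 and exercise 10 all 8 but Gstt3, exercise 6 Gstm1 and Gstt2, and sedentary 5 Gsta3. The other 23 calls held whichever single library was left out.

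**Figure D4:**
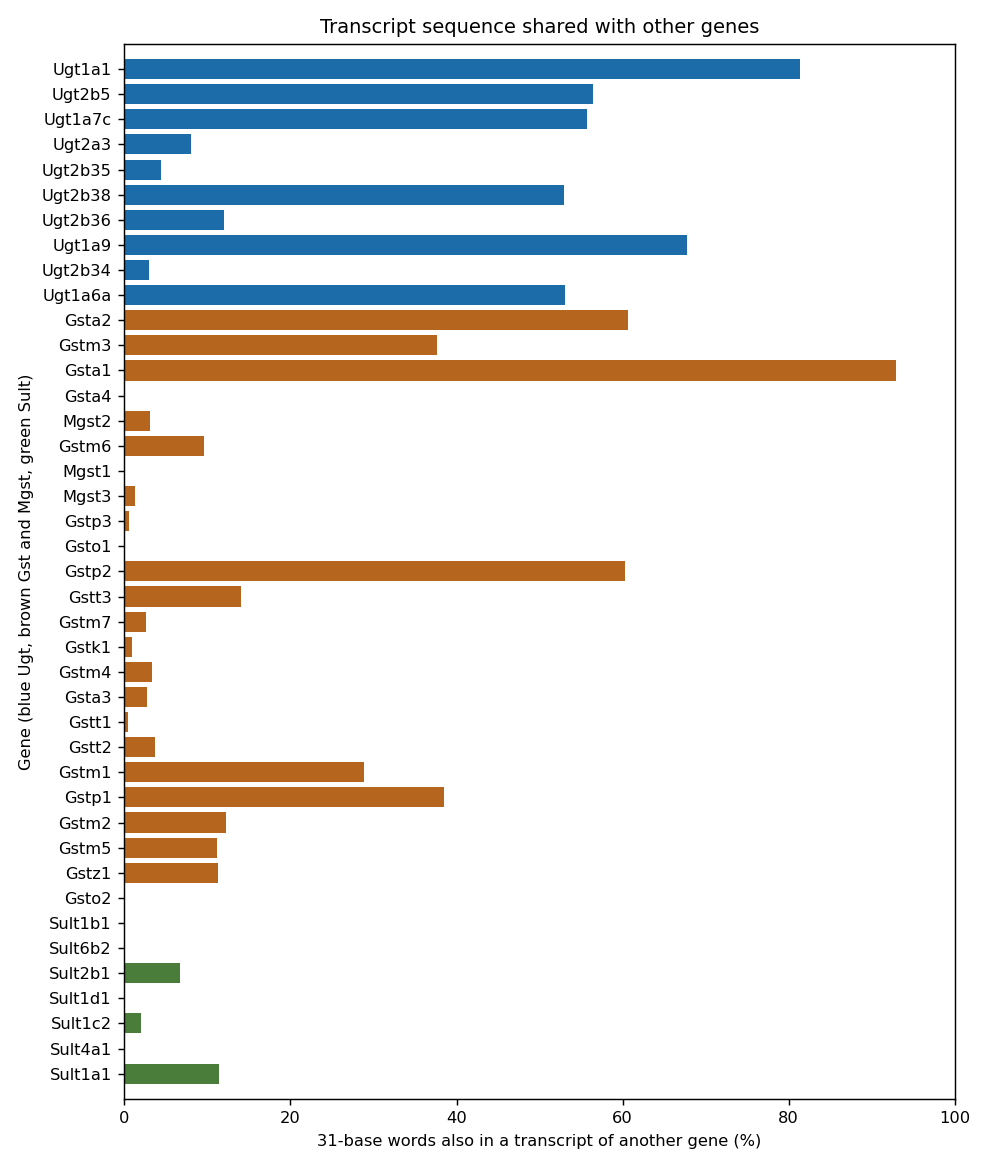
Share of 31-base words in the GENCODE M21 transcripts of each enzyme that also stand in a transcript of another gene (bars, percent). Gsta1 has the highest share, 92.9%, 9 enzymes lie above 50%, 20 lie below 5%, and the Sult genes reach at most 11.4%.

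The supply of the groups to be transferred was read from pathway lists chosen with earlier results of these data known. Calls in these lists stand beside 11.4% of all genes lower and 2.44% higher with all libraries, and 8.68% lower and 4.10% higher without sedentary 1 and 2. Where a pair of log2 fold changes or adjusted p-values is given for a gene, the second is without sedentary 1 and 2. For glucuronic acid, 4 of 8 genes tested fell (median log2 fold change -1.18), and 3 of 8 without sedentary 1 and 2 (median -0.41), with Ugp2 no longer passing. These included Ugdh, which makes UDP-glucuronic acid, with 201 ± 163 CPM in sedentary and 26.7 ± 4.98 CPM in exercise libraries (-2.91 and -1.64, edgeR adjusted p = 0.00910 and 0.00110). Cryl1 (-2.01 and -1.05, edgeR adjusted p = 0.0151 and 0.00308), of glucuronate breakdown, and the UDP-sugar carrier Slc35d1 (-1.35 and -0.64, edgeR adjusted p = 0.0229 and 0.00734) fell with it. For sulfate, 5 of 10 fell (median -0.90), and 4 of 10 without sedentary 1 and 2 (median -0.36). Smallest in p were the anion and sulfate carriers Slc26a6 (-3.74 and -2.42, edgeR adjusted p = 0.00900 and 0.00110), Slc13a1 (-4.36 and -2.71, edgeR adjusted p = 0.0112 and 0.00994) and Slc26a2 (-1.37 and -0.66, edgeR adjusted p = 0.0285 and 0.0623), of which Slc26a2 passed only with all libraries.

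For glutathione supply and turnover, 7 of 21 genes fell and 1 rose (median -0.54), and 5 fell and 1 rose without sedentary 1 and 2 (median -0.20), with Chac2 and Esd no longer passing. The dipeptidase Dpep1 (-4.28 and -2.98, edgeR adjusted p = 0.00900 and 0.00128) and the gamma-glutamyltransferase relative Ggt6 (-4.15 and -2.55, edgeR adjusted p = 0.0120 and 0.0137), both of glutathione breakdown, fell. The gene that rose in both was Slc7a11, the cystine carrier that feeds glutathione synthesis, with 1.42 ± 0.236 CPM in sedentary and 3.88 ± 0.888 CPM in exercise libraries (1.45 and 1.41, edgeR adjusted p = 0.00900 and 0.00587).

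Of 11 genes listed for the export of conjugates and other organic compounds, 6 fell and 1 rose with all libraries (median -3.14). The same numbers fell and rose without sedentary 1 and 2 (median -1.73). The organic cation exporter Slc47a1 (-3.89 and -2.69, edgeR adjusted p = 0.00900 and 0.00127), the canalicular and apical conjugate pump Abcc2 (-4.13 and -2.68, edgeR adjusted p = 0.00900 and 0.00253) and the efflux pump Abcg2 (-3.18 and -1.90, edgeR adjusted p = 0.00900 and 0.00122) had the smallest p. Abcc2 had 83.6 ± 72.8 CPM in sedentary and 4.73 ± 2.51 CPM in exercise libraries. Of 25 genes for the hydrolysis, reduction and oxidation that precede conjugation, 18 fell and 1 rose (median -2.45). Without sedentary 1 and 2, 16 fell and 1 rose (median -1.19), with Akr1b7 and Aldh1a7 no longer passing. Epoxide hydrolase Ephx2 (-4.25 and -2.93, edgeR adjusted p = 0.00900 and 0.00127), carboxylesterase Ces2e (-4.59 and -3.07, edgeR adjusted p = 0.00900 and 0.00122) and xanthine dehydrogenase Xdh (-3.75 and -2.37, edgeR adjusted p = 0.00900 and 0.00151) had the smallest p. The gene that rose, named after its values were seen, was Por, the reductase that feeds electrons to cytochromes P450 (0.85 and 1.06, edgeR adjusted p = 0.0382 and 0.00881).

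Of 16 factors that sense foreign compounds or drive these genes, 7 fell and none rose (median -0.70). Without sedentary 1 and 2, 6 fell and 1 rose, and the median was -0.097. The fall of Ppara, the fatty acid receptor, was lost (-2.77 and -0.89, edgeR adjusted p = 0.0336 and 0.0922), and Rxra, the shared partner of many nuclear receptors, rose in the 8 remaining libraries (-0.07 and 0.50, edgeR adjusted p = 0.858 and 0.00833). Smallest in p were the nuclear receptor Hnf4g (-4.14 and -2.49, edgeR adjusted p = 0.00900 and 0.000975), the intestinal factor Cdx2 (-5.47 and -3.84, edgeR adjusted p = 0.00900 and 0.00252) and the pregnane X receptor Nr1i2 (-4.56 and -3.04, edgeR adjusted p = 0.00900 and 0.00219). Cdx2 and Nr1i2 averaged 0.617 and 1.03 CPM in exercise libraries. Of 9 acetyl- and methyltransferases and other conjugating enzymes tested, 4 fell (median -0.99), and 3 fell without sedentary 1 and 2 (median -0.998), Nat2 being lost. Nat8f2 (-4.20 and -3.26, edgeR adjusted p = 0.00900 and 0.00154), Nat8 (-3.50 and -2.26, edgeR adjusted p = 0.00900 and 0.00151) and Tpmt (-1.83 and -0.998, edgeR adjusted p = 0.0177 and 0.0235) were smallest in p.

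Markers of other cell types were read next, and their calls stand beside the same shares of all genes. Some genes stand in a marker list and a pathway list, so the falls of these lists are not separate observations throughout. Among them are Anpep (intestinal and glutathione), Dpep1 (acinar and glutathione) and Cdx2 (intestinal and sensing factors). Dpep1 is the acinar gene called lower below. The marker lists did not all move with the enzymes. Of the intestinal list, 38 of 39 genes tested fell (median log2 fold change -4.36, and -3.08 without sedentary 1 and 2, where again 38 fell). Apoa4, an apolipoprotein of enterocytes, had 2076 ± 1500.4 CPM in sedentary and 119 ± 98.3 CPM in exercise libraries, and Alpi, intestinal alkaline phosphatase, 1167 ± 1016 CPM in sedentary and 51.2 ± 32.7 CPM in exercise libraries. In sedentary libraries the mean of 1 of the 40 listed genes, and in exercise libraries that of 5, was under 1 CPM. Of the hepatocyte list 3 of 8 tested genes fell (median -1.65), and 5 of 10 without sedentary 1 and 2 (median -2.09). Its sum, 209 to 1638 CPM in sedentary and 33.7 to 72.8 CPM in exercise libraries, came in sedentary libraries mostly from Cps1 and Cyp3a11, which enterocytes also express. Cps1, of the urea cycle, had 374 ± 446 CPM in sedentary and 7.09 ± 7.94 CPM in exercise libraries, and Cyp3a11, a drug-oxidizing cytochrome P450, 249.9 ± 188 CPM in sedentary and 15.1 ± 11.4 CPM in exercise libraries. Albumin (Alb) had 8.27 ± 6.13 CPM in sedentary and 2.10 ± 1.94 CPM in exercise libraries, and the means of 9 of its 20 genes in sedentary and 14 in exercise libraries were under 1 CPM.

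Of the duct cell list 7 of 16 fell (median -0.92), and 6 fell and 1, Krt7, rose without sedentary 1 and 2 (median -0.48). Krt8 was at 591 ± 519 CPM in sedentary and 131 ± 32.8 CPM in exercise libraries and Epcam at 319 ± 259 CPM in sedentary and 78.6 ± 11.0 CPM in exercise libraries. The summed duct level was 722 to 3884 CPM in sedentary and 493 to 849 CPM in exercise libraries. Of 5 stomach genes tested 2 fell (median -4.87), and 3 without sedentary 1 and 2 (median -2.34), with Tff2 at 589.7 ± 553 CPM in sedentary and 407 ± 211 CPM in exercise libraries and Pgc, high in sedentary 1 alone, at 0.515 ± 0.754 CPM in exercise libraries. Summed over the 16 stomach genes found, tested or not, the level was 294 to 6138 CPM in sedentary and 227 to 739 CPM in exercise libraries. Acinar genes went the other way, with 17 of 30 higher and 1 lower (median 1.25), and 19 higher and 1 lower without sedentary 1 and 2 (median 1.36). Their sum was 73667 to 151297 CPM in sedentary and 162042 to 429691 CPM in exercise libraries, with Cela2a at 13131 ± 3758 CPM in sedentary and 31058 ± 13249 CPM in exercise libraries and Ctrb1 at 11229.9 ± 2787 CPM in sedentary and 30386 ± 12741 CPM in exercise libraries. With the acinar genes taken out before scaling, 31 enzymes were again called lower.

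Of 24 endocrine genes none passed in the edgeR test with all libraries, where 3 were higher at an unadjusted p under 0.05. DESeq2 called 2 higher, beside 1097 of all 15298 genes, and limma-voom 0, beside 177. Without sedentary 1 and 2, edgeR called 3 higher (median 0.65 with all libraries and 0.13 without those 2). Ins2 had 71445 ± 54130.5 CPM in sedentary and 107499 ± 15668 CPM in exercise libraries and Ins1 29733 ± 22799.6 CPM in sedentary and 44687 ± 7057 CPM in exercise libraries. Of 19 stromal, endothelial and immune genes none passed with edgeR, with 2 lower and 2 higher at an unadjusted p under 0.05. DESeq2 called 2 lower and 1 higher, beside 2642 lower and 1097 higher of all 15298 genes. The edgeR test without sedentary 1 and 2 called 1 lower (Lum), and the median was -0.25 against 0.16 with all libraries. Plvap had 79.8 ± 42.5 CPM in sedentary and 97.6 ± 15.7 CPM in exercise libraries and Ptprc 76.2 ± 82.9 CPM in sedentary and 30.2 ± 16.4 CPM in exercise libraries, and the sum of this list was 111 to 637 CPM in sedentary and 328 to 467 CPM in exercise libraries. The part of these cell types in the falls of the enzymes was not tested.

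**Figure D5:**
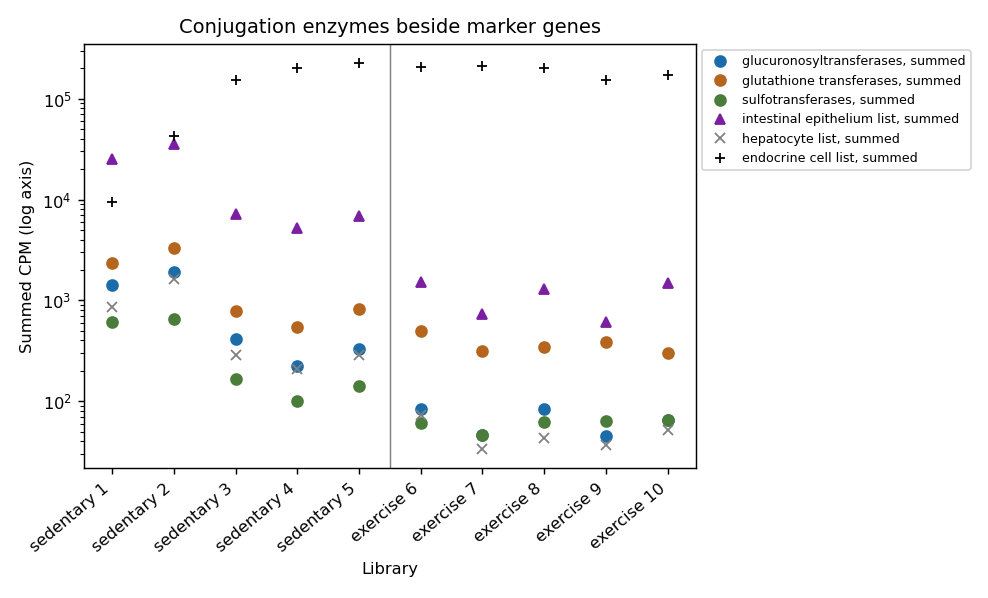
Summed CPM of the 3 enzyme families (circles), and of the intestinal (triangles), hepatocyte (crosses) and endocrine (plus signs) marker lists, in each library on a log axis. The Ugt sum runs from 1925 CPM in sedentary 2 to 44.8 in exercise 9, and the intestinal sum from 35659 to 604 CPM in the same libraries.

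Summed over each family, the Ugt genes took 865 ± 767 CPM in sedentary and 64.3 ± 19.0 CPM in exercise libraries. The Gst and Mgst genes took 1558 ± 1204 and 368 ± 79.7 CPM, and the Sult genes 335 ± 274 and 59.6 ± 7.88 CPM. Sedentary 1 and 2 carried most of these sedentary sums. The Ugt sum was 1434 and 1925 CPM in these 2 and 225 to 413 CPM in sedentary 3 to 5. The Gst and Mgst sum was 2339 and 3296 CPM against 540.5 to 824 CPM, and the Sult sum 609 and 658 CPM against at most 166 CPM in sedentary 3 to 5. Every one of sedentary 3 to 5 was still above every exercise library in all 3 sums.

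Each enzyme was also set against the intestinal sum of its own library, a measure chosen after the values were seen. The intestinal sum varied 59.1-fold over the 10 libraries. Ugt1a9 varied 78.3-fold in CPM, but per 1000 CPM of the intestinal list it was 0.833 to 1.27 in sedentary and 0.739 to 1.29 in exercise libraries, a 1.74-fold range. For Mgst3 the ranges were 36.8-fold in CPM and 2.27-fold per intestinal CPM, and for Gsta1 197-fold and 4.05-fold. Ugt1a9 and Mgst3 had the narrowest ranges of the 41 enzymes on this ratio. Ugt1a1 still varied 40.5-fold on it and Gstp2 39.1-fold. These 2 ranges rest on low counts, 3 of Ugt1a1 in exercise 7 and 4 of Gstp2 in exercise 8. The split of counts between similar genes is also uncertain for Ugt1a1, Ugt1a9 and Gstp2. Gstz1 showed the reverse of Ugt1a9, with 2.37-fold in CPM and 81.7-fold per intestinal CPM.

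Of the 15 enzymes that were over 16-fold lower in exercise, the groups overlapped on this ratio for 11. Exercise libraries were all below sedentary ones for 4: Ugt1a7c, Ugt2b5, Ugt2b36 and Sult1b1. Gsta2 and Ugt2b36, of these 15, reached 10 counts only in sedentary libraries, so their falls were not independent of entering the set. Sult1b1 was 5.44 to 7.53 per 1000 intestinal CPM in sedentary and 1.60 to 4.35 in exercise libraries. Of all 31 enzymes that fell, the groups overlapped for 15, exercise was below for 4, and exercise was above for 12. Ugt2b34 was among the 12, with 19.0 to 26.3 in sedentary and 29.5 to 60.2 per 1000 intestinal CPM in exercise libraries. Over all 41 enzymes, the groups overlapped for 16, exercise was below for 4, and exercise was above for 21. The share of all genes that lay above or below on this ratio was not counted. The intestinal sum was lower in every exercise library, so a gene level in CPM, such as Gstz1, comes out above on it. The ratio is a description of these libraries and no test was made on it.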

How the data were processed

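Islet RNA of 5 sedentary and 5 exercise libraries was analysed from 1 table of estimated counts per Ensembl gene that the authors deposited. The submitters' processing notes name fastp and kallisto without versions. For genome build, annotation and transcript summing, nothing is given in the sources used here. Rounding the estimated counts to integers changed 12.6% of the deposited values (tolerance 1e-06). Symbols were matched for 48845 of 52178 gene IDs (93.6%), which held at least 99.5% of the counts of each library.

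Genes that passed edgeR's default filter (minimum count 10, minimum total 15; 15298 genes) were tested in R 4.3.3 by edgeR 4.0.16 (quasi-likelihood F-test, two-sided), with TMM factors (0.669 to 1.20), with Benjamini-Hochberg adjusted p under 0.05 as the threshold. SE is the log2 fold change divided by the square root of F. No batch, pair or litter is given, and replicate numbers run from 1 to 10 with none shared. On simulated counts for 15298 genes in 10 libraries, the step called 17 of 100 genes with a true 2-fold change, 69 of 100 with a 4-fold change and 4 without a change. For 15692 genes in the 8 libraries without sedentary 1 and 2, it called 59, 88 and 5. Simulated counts were drawn for each gene separately from its mean and dispersion, with no deviation shared across genes. They therefore cannot show how many false calls a shared deviation of sedentary 1 and 2 would give.

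The members, lists and tests were chosen with earlier results of these data known. Every member is named. Library values were given for the 20 members of smallest p among those that passed and for the 3 of highest mean CPM of each family. For other members they were chosen after their values were seen. Pathway lists were represented by the 3 genes of smallest p and marker lists by the 2 of highest mean CPM, and others named (Alb, Por, Gm3776) were chosen after their values were seen. Alternatives were other scalings (RLE, library totals, upper quartile, acinar genes taken out), other filters, DESeq2 1.42.0, limma-voom (limma 3.58.1), each library left out and sedentary 1 and 2 left out. Words of 31 bases were compared over GENCODE M21 transcripts, and gene order was taken from RefSeq GRCm38.p6 for neighbours only. Genes of the lists named for a call lost or gained without sedentary 1 and 2, or for standing in more than 1 list, were also named after their values were seen. A motif search in promoters, and some genes counted in the lists, are not reported here.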

Additional observations from a re-analysis of the deposited data

Results flagged for a closer look

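In 3 of the 82 sets of 5 libraries examined (41 enzymes in 2 groups), 1 library lay far from the other 4 by Dixon's criterion for 5 samples (its gap to the nearest library against the range of the 5), where chance gives about 1 in 20. Sult1c2 was at 28.1 CPM in sedentary 1, with the next library at 7.75 CPM and the lowest at 4.54 CPM. Gsta4 was at 6.31 CPM in exercise 6, with the next at 2.83 CPM and the lowest at 1.67 CPM. Gstm5 was at 8.30 CPM in exercise 10, below the next at 11.3 CPM and the highest at 12.1 CPM.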

How the results depend on the processing

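The number of enzymes called lower, 31, was between 30 and 35 under the other scalings, the other filters and DESeq2, 27 without sedentary 1 and 2, 23 to 34 with 1 library left out, and 13 with limma-voom. The number called higher, 0, was 1 with DESeq2. Over all genes, lower and higher calls were 4408 and 159 with library totals, 2642 and 1097 with DESeq2, and 339 and 177 with limma-voom. Without sedentary 1 and 2, 644 were higher, and with 1 library left out 800 to 2721 were lower and 132 to 889 higher. The log2 fold change of Gstm2 turned from -0.18 to 0.33 without sedentary 1 and 2 and was -0.34 to 0.11 with 1 library left out. That of Gstz1 turned from 0.20 to -0.14 with library totals, which moved the median of all genes to -0.34. The cause of these changes was not tested. Lower calls were 82.4% of all calls, 96.5% with library totals, 70.7% with DESeq2, 65.7% with limma-voom and 67.9% without sedentary 1 and 2. No paired analysis was possible because the groups share no replicate number. Depth limits Gsta2, Gstp3 and Ugt2b36, which had under 10 counts in every exercise library.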
